A study of Mus musculus with 2 samples.

Results

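The miR-181 family of the mouse has 6 genes, Mir181a-1, Mir181b-1, Mir181a-2, Mir181b-2, Mir181c and Mir181d, and all 6 were among the 1973 miRNA genes counted here by microRNA sequencing. They were found by matching the gene identifiers of the counts, without version, to these symbols in GENCODE on GRCm38. The small RNA came from whole intestine, with no segment named, of 2 newborn B6NCrl mice at postnatal day 0. The labels name the same pregnant female for both pups, list no treatment and give the sex as not collected. Each animal gave 1 library, called pup 2 or pup 1 below. Without a second group, the series shows levels and the distance between littermates. Levels are in CPM, the counts of a gene on its annotated strand per 1000000 such counts in all miRNA genes, and every ± is the SD over the 2 pups.

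A miRNA is cut from a hairpin whose arms are called 5p and 3p, and the arm that is kept guides an Argonaute protein to messenger RNAs that pair with its seed, bases 2 to 8. Genes whose arms share a seed form a family, because they can pair with the same sites. In the mouse, miR-181a is best known for raising the sensitivity of thymocytes to antigen, and miR-181b for restraining inflammatory signalling in vascular endothelium. The family is encoded as pairs of neighbouring hairpins, and the pairs on chromosomes 1 and 2 encode the same 5p sequences.

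The 5p arms are shown because they define the family, and their seed is in capitals. They were read 5′ to 3′ from RefSeq on GRCm38.p6, which held mature arms of all 6 genes, 12 arms with 10 distinct sequences.
miR-181a-5p: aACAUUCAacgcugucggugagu
miR-181b-5p: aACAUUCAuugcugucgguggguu
miR-181c-5p: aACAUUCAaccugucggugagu
miR-181d-5p: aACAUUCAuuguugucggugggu
All 4 sequences carry the seed ACAUUCA, and none of the other genes among the 1072 in the RefSeq miRNA table has it. With positions counted from 1 at the 5′ end of the first-named arm, over their common length miR-181b-5p differs from miR-181a-5p by A9U, C10U and A21G, all outside the seed. C12U separates miR-181d-5p from miR-181b-5p over their common length, and miR-181c-5p is miR-181a-5p with 1 base removed. The arms are 21 to 24 nucleotides long, so counts per gene were compared without a length correction.

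The 3p arms are shown because they tell the copies apart, again with the seed in capitals.
miR-181a-1-3p: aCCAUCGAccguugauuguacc
miR-181c-3p: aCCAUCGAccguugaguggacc
miR-181a-2-3p: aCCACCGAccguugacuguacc
miR-181b-1-3p: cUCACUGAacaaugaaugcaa
miR-181b-2-3p: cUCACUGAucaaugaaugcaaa
miR-181d-3p: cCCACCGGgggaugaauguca
Each of these 6 sequences belongs to 1 gene. Mir181a-1 and Mir181c share a 3p seed, Mir181b-1 and Mir181b-2 share another, and the seeds of Mir181a-2 and Mir181d occur in no other gene of the table. Between the copies, U5C and U16C separate miR-181a-2-3p from miR-181a-1-3p, and A9U separates miR-181b-2-3p from miR-181b-1-3p over their common length.

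The hairpins of the copies are shown with the longest run that a pair has in common in capitals.
Mir181a-1: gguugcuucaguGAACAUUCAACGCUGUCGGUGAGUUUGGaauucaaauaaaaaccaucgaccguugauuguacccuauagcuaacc
Mir181a-2: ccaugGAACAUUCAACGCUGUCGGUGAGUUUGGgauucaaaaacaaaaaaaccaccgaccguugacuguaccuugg
Mir181b-1: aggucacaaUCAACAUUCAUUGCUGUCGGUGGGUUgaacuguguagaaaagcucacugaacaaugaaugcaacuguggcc
Mir181b-2: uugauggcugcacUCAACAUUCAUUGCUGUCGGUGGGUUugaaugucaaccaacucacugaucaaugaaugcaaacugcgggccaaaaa
The run of Mir181a-1 and Mir181a-2 is 28 nucleotides long and holds the whole 5p arm, with 1 base before it and 4 after it. The run of Mir181b-1 and Mir181b-2 is 26 nucleotides long and ends with the last base of the 5p arm. The labels give an RNA size range of below 30, without a unit. Multi-mapped reads, which made up 29.8% of all reads in pup 2 and 30.3% in pup 1, stand in a separate total and belong to no gene. A read of miR-181a-5p or miR-181b-5p that stays inside these runs maps to both copies, so the counts of these 4 genes are lower limits. The longest run that miR-181c-5p shares with another gene of the table is 12 nucleotides, and that of miR-181d-5p is 11. The counts give no arm, so how many of them came from 5p or 3p was not tested.

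On GRCm38, Mir181c (ENSMUSG00000065483.1, chromosome 8, 84178873 to 84178961) and Mir181d (ENSMUSG00000076338.1, 84178716 to 84178787) lie on the minus strand, 85 nucleotides apart, in an intron of Nanos3 as annotated in GENCODE. Mir181a-1 (ENSMUSG00000065565.1, chromosome 1, 137966455 to 137966541) and Mir181b-1 (ENSMUSG00000065458.1, 137966639 to 137966718) lie on the plus strand, 97 nucleotides apart, in an intron of the noncoding gene Gm4258. Mir181b-1 also overlaps an exon of the long noncoding RNA A430106G13Rik, a gene that reaches Mir181a-1 without containing it. Both hairpins face an intron of the long noncoding RNA Gm26936 on the other strand. Mir181a-2 (ENSMUSG00000065423.1, chromosome 2, 38852735 to 38852810) and Mir181b-2 (ENSMUSG00000065578.1, 38853830 to 38853918) lie 1019 nucleotides apart on the plus strand, where no annotated gene contains them. They face an intron of Nr6a1, a nuclear receptor gene on the other strand, and Mir181b-2 also faces an exon of the unclassified gene Gm44144.

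**Figure D1:**
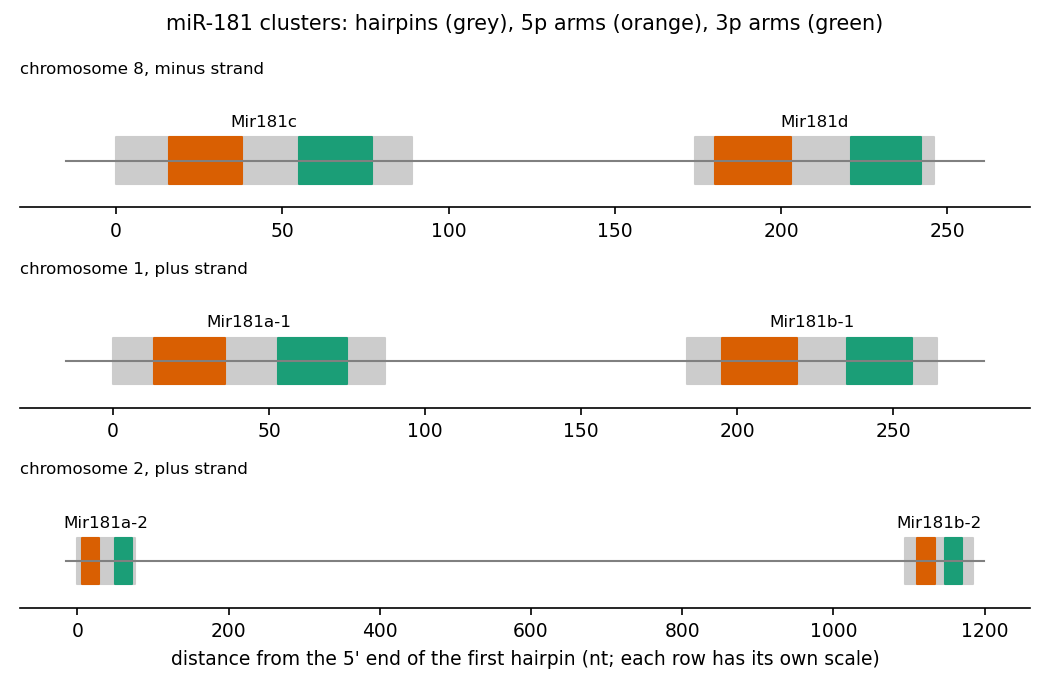
Position of the hairpins and mature arms of the 3 miR-181 clusters, drawn to scale from the 5′ end of the first hairpin in nucleotides, with a separate scale for each row. The hairpins on chromosomes 8 and 1 are 85 and 97 nucleotides apart, those on chromosome 2 1019 nucleotides.

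The family took 0.327% ± 0.00690 of all miRNA counts, 3224 CPM in pup 2 and 3322 CPM in pup 1. Most of it came from the Nanos3 cluster. Mir181c and Mir181d together held 74.8% of the family's counts in pup 2 (exact binomial 95% interval 74.1 to 75.5) and 76.9% in pup 1 (76.1 to 77.7). Mir181a-1 with Mir181b-1 held 16.9% in pup 2 (16.3 to 17.5) and 17.4% in pup 1 (16.7 to 18.1). Mir181a-2 with Mir181b-2 held 8.27% in pup 2 (7.84 to 8.72) and 5.69% in pup 1 (5.28 to 6.12), and was the cluster whose share differed most between the littermates. Because 5p reads of the a and b copies can be lost to the total of multi-mapped reads, the split between the clusters is that of the counted reads. In whole tissue, fewer cells of a type and less RNA per cell cannot be told apart.

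Mir181c, whose 5p arm has no identical copy, was the most counted, with 7362 counts in pup 2 and 6139 in pup 1. This was 1646 ± 105 CPM and rank 61 of 1973 genes. Its neighbour Mir181d had 3941 counts in pup 2 and 2975 in pup 1, or 838 ± 5.31 CPM. The pups lay close together in both genes, and for Mir181d they stood at 841 CPM in pup 2 and 834 CPM in pup 1.

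Mir181a-1, a source of the thymocyte miRNA miR-181a, had 2524 counts in pup 2 and 2054 in pup 1, or 557 ± 26.1 CPM. Its copy Mir181a-2 had 78 counts in pup 2 and 73 in pup 1, or 18.6 ± 2.69 CPM. The 2 genes encode the same miR-181a-5p, and reads of it that map to both are in neither count. The counts therefore do not measure the miR-181a-5p made by each gene. They were 30.2-fold apart (log2 ratio of Mir181a-1 over Mir181a-2, 4.92 ± 0.14). The ratio was alike in the pups, 5.02 in pup 2 (exact binomial 95% interval 4.69 to 5.36) and 4.81 in pup 1 (4.48 to 5.17).

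By counted reads, again without those that map to both copies, the miR-181b copies were apart in the other direction, with the chromosome 2 gene higher. Mir181b-1 had 26 counts in pup 2 and 9 in pup 1, or 4.04 ± 2.14 CPM. It was the only member under 10 counts in a library, though above the 3 counts that a count of 0 still allows (0.640 CPM for pup 2, 0.841 CPM for pup 1). Mir181b-2 had 1171 counts in pup 2 and 601 in pup 1, or 209 ± 57.7 CPM. Over both pups the log2 ratio of Mir181b-1 over Mir181b-2 was -5.78 ± 0.40, at -5.49 in pup 2 (-6.11 to -4.93) and -6.06 in pup 1 (-7.20 to -5.13). The copy with more counts therefore lay on chromosome 1 for miR-181a and on chromosome 2 for miR-181b.

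**Figure D2:**
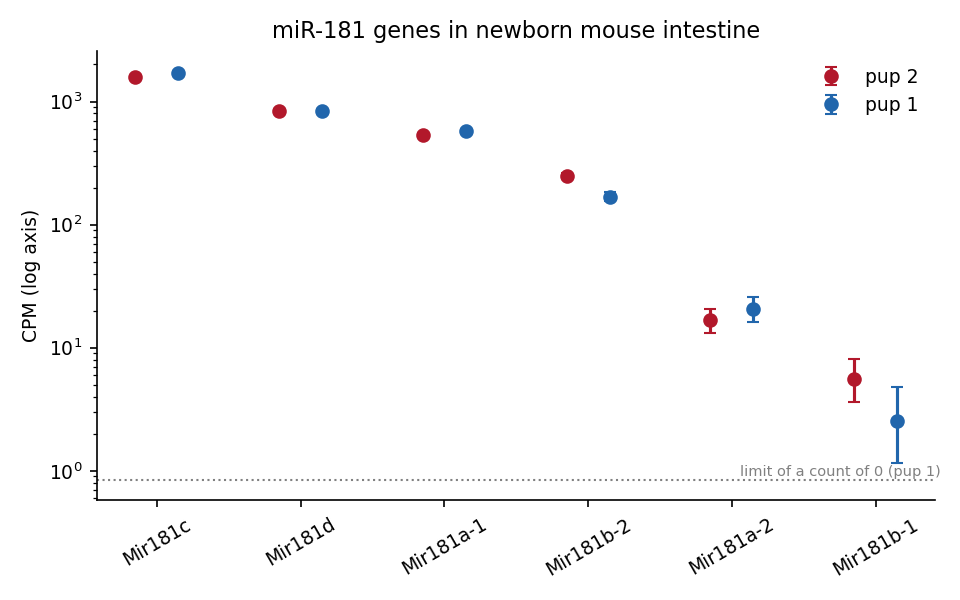
CPM on a log axis of each miR-181 gene in pup 2 and pup 1, with exact Poisson 95% intervals of the count, which cover counting error only. For the a and b genes the counts, not the CPM, are lower limits, as multi-mapped reads are also missing from the denominator. Levels of counted reads ran from Mir181c at 1646 CPM to Mir181b-1 at 4.04 CPM. No neighbours in this order overlapped over the pups.

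In order of the mean level of counted reads the genes were Mir181c, Mir181d, Mir181a-1, Mir181b-2, Mir181a-2 and Mir181b-1. The order was the same in both pups. Each step was larger than its SD over the pups. The smallest was Mir181d over Mir181a-1, with a log2 ratio of 0.59 ± 0.08. The step of Mir181c over Mir181d was 0.97 ± 0.10, that of Mir181a-1 over Mir181b-2 1.44 ± 0.47, that of Mir181b-2 over Mir181a-2 3.47 ± 0.61 and that of Mir181a-2 over Mir181b-1 2.30 ± 1.01. With 2 pups an exact sign-flip test cannot give a p below 0.5, so these ratios carry no test. Such ratios also hold any difference in capture between small RNAs, which the spread between pups does not measure. Nor does it measure the loss of multi-mapped reads. Mir181c and Mir181d have no identical arm, while the counts of the a and b genes are lower limits. Where c and d stand above a and b, and in the steps among the a and b genes, the order is therefore that of the counted reads only.

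Hairpins that lie side by side held unequal counts in all 3 clusters. Mir181c exceeded Mir181d by 1.87-fold in pup 2 and 2.06-fold in pup 1. Mir181a-1 exceeded Mir181b-1 by 97.1-fold in pup 2 and 228-fold in pup 1, a log2 ratio of 7.22 ± 0.87 that rests on the few reads of Mir181b-1. In the chromosome 2 cluster the order was turned round, and the log2 ratio of Mir181a-2 over Mir181b-2 was -3.91 in pup 2 and -3.04 in pup 1. By counted reads, the a gene was thus the higher of its cluster on chromosome 1 and the lower of its cluster on chromosome 2. Reads that map to both copies are missing from the a and b genes. These ratios therefore do not show which hairpin of either cluster gave more miRNA.

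Between the littermates, Mir181b-2 stood apart among the members tested. At 250 CPM in pup 2 and 168 CPM in pup 1, it was higher in pup 2 by 0.61 on the log2 scale (1.53-fold; exact binomial 95% interval of the log2 ratio 0.47 to 0.76; exact binomial adjusted p = 4.82e-17). Mir181c was lower in pup 2, at 1572 CPM in pup 2 and 1721 CPM in pup 1, by a small log2 ratio of -0.09 (-0.14 to -0.04; exact binomial adjusted p = 0.00144). With upper-quartile scaling Mir181c did not pass (-0.05, exact binomial adjusted p = 0.131), while Mir181d did (0.10, exact binomial adjusted p = 0.0152). The test compares the libraries of 2 animals with counting noise, at the ratio of TMM library sizes, and contains no replicate of either. Its p-values are Benjamini-Hochberg adjusted over 314 genes with at least 10 counts in each library.

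The other members tested did not pass. Mir181a-1 had a log2 ratio of -0.05 (-0.14 to 0.03), Mir181a-2 of -0.25 (-0.73 to 0.23) and Mir181d of 0.06 (-0.01 to 0.12), pup 2 over pup 1. Mir181b-1 stayed out of this test because of its 9 counts in pup 1. With no count filter its log2 ratio was 1.17, farther from 0 than that of Mir181b-2, but did not pass (exact binomial adjusted p = 0.181). In all, 2 of 5 members tested differed, 1 higher and 1 lower in pup 2, beside 41.1% of all genes tested, 21.3% higher and 19.7% lower. The members' share was near that background. Their median log2 ratio was -0.05, and that of all 314 genes was 0.00. For the 6 genes summed, the interval of the log2 ratio reached from -0.04 to 0.03.

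**Figure D3:**
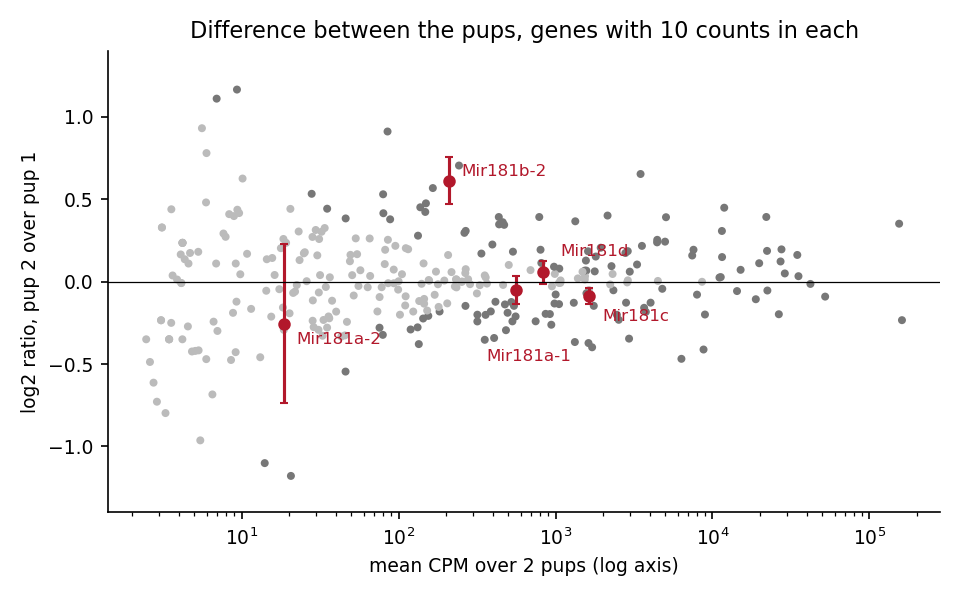
Log2 ratio of pup 2 over pup 1 against mean CPM (log axis) for 312 genes with at least 10 counts in each library, with 2 further genes beyond ±1.4 not drawn. Red points are miR-181 genes with exact binomial 95% intervals, dark grey points other genes that passed the test. Among the members tested, Mir181b-2 at 0.61 is farthest from 0, and Mir181b-1 was not tested.

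The same counts of Mir181b-2 were set against its relatives within each library, a comparison that needs no scaling. It reuses the counts that singled the gene out, so it adds no independent evidence. Its direction against Mir181a-2 and Mir181a-1 follows from the log2 ratios given above. The odds of a Mir181a-2 read over a Mir181b-2 read were lower in pup 2 by an odds ratio of 0.549 (exact conditional 95% interval 0.387 to 0.778). For Mir181a-1 over Mir181b-2, chosen as neighbours in the order of levels, the odds ratio was 0.631 (0.561 to 0.708). Mir181c over Mir181d moved less, with an odds ratio of 0.905 (0.854 to 0.960). For Mir181a-1 over Mir181b-1 it was 0.425 (0.175 to 0.939). Between copies of the same miRNA the intervals held 1, at 1.15 (0.820 to 1.61) for Mir181a-1 over Mir181a-2 and 1.48 (0.668 to 3.62) for Mir181b-1 over Mir181b-2. No value from these counts distinguishes the animals from their libraries, and what set the difference was not tested.

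Other miRNAs with 2 gene copies were set beside the unequal counts of the miR-181 copies. Reads that map to both copies are missing from every share. A share thus describes the reads that tell the copies apart, not the output of the miRNA, and need not be comparable between pairs. Mir181a-1 took 97.0% of the miR-181a pair's counts in pup 2 and 96.6% in pup 1, and Mir181b-2 took 97.8% of the miR-181b pair's counts in pup 2 and 98.5% in pup 1. Over 11 other pairs the mean share of the copy with more counts ran from 61.4% to 94.2%, with a median of 80.0%. Mir92-1, of the miR-17-92 cluster, was nearest with 94.2% ± 0.112, and the epithelial Mir194-1 had 65.7% ± 0.938. The share of Mir29b-1, 60.0% in pup 2 and 100% in pup 1, rested on 15 reads in pup 2 and 1 in pup 1. By mean share, both miR-181 pairs lay above these 11 listed pairs, which also have an arm identical to that of another gene. The list does not hold every such pair. Outside it, Mir219a-1 had 33 counts in pup 2 and 24 in pup 1 while its copy Mir219a-2 had 0 in both, so all counted reads of that pair, far fewer than for either miR-181 pair, fell to the same copy. This is a description of 2 libraries, and the difference was not tested.

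**Figure D4:**
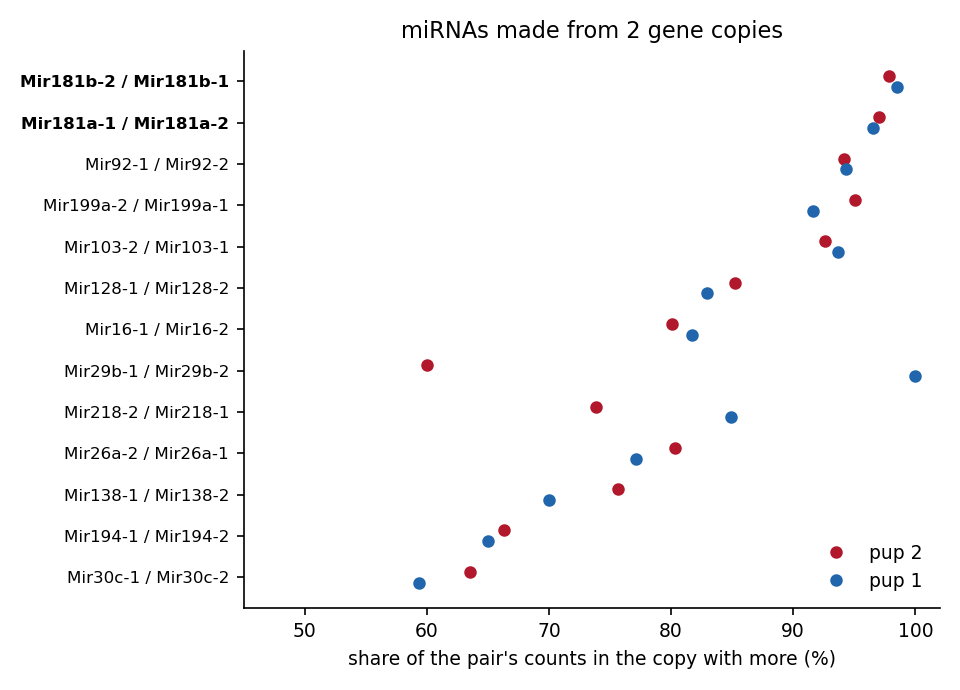
Share of the counts of a pair of gene copies that fell to the copy with more counts (axis from 45%), in pup 2 and pup 1, with the miR-181 pairs in bold. The miR-181 pairs lie at 96.6% to 98.5% in the 2 pups, and reads that map to both copies are in no share.

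Genes were classed by the mature arms that the RefSeq table holds, so an identical arm missing from it was not seen. Of 87 genes with an arm identical to that of another gene, 42 (48.3%) reached 10 counts in each library, against 246 of 829 genes (29.7%) with none. Among the genes that reached it, those with an identical arm had a median of 49.8 CPM (quartiles 19.0 and 194), against 189 CPM (28.0 and 1524) for those with none. The medians do not describe the classes as a whole, since genes below the count minimum are left out. The other 26 genes tested have no mature arm in the RefSeq table. Mir181c and Mir181d, with no identical arm, lay above the median of the genes with none. Mir181a-1 and Mir181b-2 lay above and Mir181a-2 and Mir181b-1 below the median of the genes with an identical arm. The part of multi-mapped reads in these levels was not tested.

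**Figure D5:**
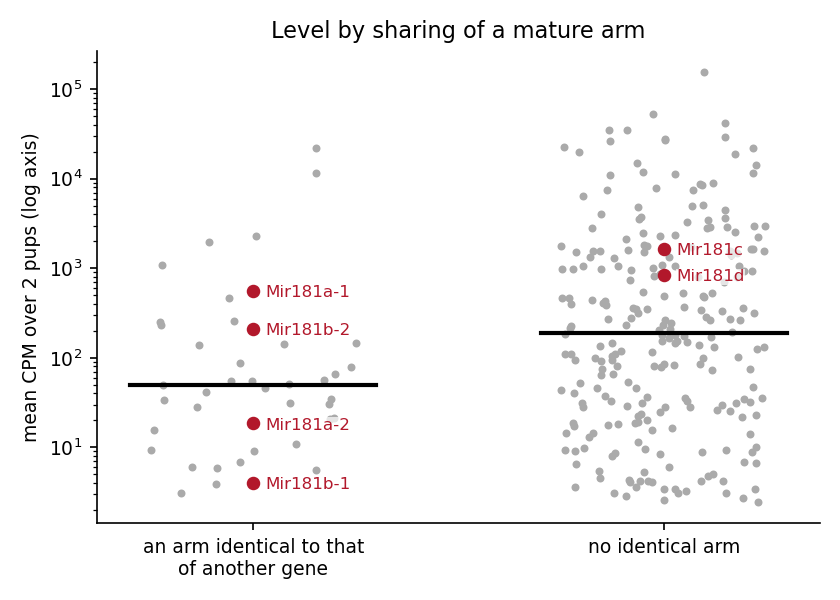
Mean CPM (log axis) of genes with at least 10 counts in each library. Genes are split by whether a mature arm is identical to that of another gene in the RefSeq table. Black lines are medians, 49.8 and 189 CPM. Red points are the 6 miR-181 genes, including Mir181b-1, which had under 10 counts in pup 1.

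Since miR-181 is well known from lymphocytes and endothelium, miRNAs of those cells are set beside it. Of 8 leukocyte miRNAs, 7 were matched by symbol and 5 had at least 10 counts in each library; 2 were higher and 0 lower in pup 2, beside 21.3% higher over all genes, and the median of the 5 log2 ratios was 0.22. Mir342 was highest (883 CPM in pup 2 and 693 in pup 1), then the myeloid Mir223 (421 in pup 2 and 371 in pup 1) and Mir146, which restrains innate immune signalling (101 in pup 2 and 89.7 in pup 1). The summed leukocyte level was 1503 CPM in pup 2 and 1257 CPM in pup 1. Mir142 was not matched, so the sum leaves it out and its level is not known. Mir142b had 0 counts in both pups, which gives no level for Mir142. Of the 2 endothelial miRNAs, Mir126a was matched, at 49791 CPM in pup 2 and 54634 CPM in pup 1. Most of the difference in the leukocyte sum came from Mir342, and 3 of the 5 leukocyte genes tested did not pass. The part of these cell types in the miR-181 levels was not tested. Of 20 tested genes with 2 copies, 6 were higher and 0 lower in pup 2, with a median of 0.10, beside 21.3% higher and 19.7% lower over all genes.

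Genes outside the family with the nearest levels were found by the distance of log2(CPM + 1) over the 2 libraries, among 309 genes, so they match a level rather than a pattern. Mir532 lay nearest to Mir181c (distance 0.03), with 1579 CPM in pup 2 and 1686 CPM in pup 1. Mir185 lay nearest to Mir181d (0.07), Mir337 to Mir181a-1 (0.09) and Mir493 to Mir181a-2 (0.03). Mir181b-2 had the most distant match, Mir362 (0.30), with 297 CPM in pup 2 and 188 CPM in pup 1, also higher in pup 2.

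The libraries held 4683939 counts on annotated strands in pup 2 and 3567658 in pup 1, and 314 genes reached 10 counts in both. Mir143 of smooth muscle and Mir215 of gut epithelium ranked highest. No member had a read on the strand opposite to its hairpin.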

How the data were processed

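MicroRNA sequencing libraries of the intestine of 2 newborn mice were used, 1 per animal. The authors deposited raw read counts per miRNA gene on mm10 with the GENCODE M4 annotation, per the file headers and accompanying text; the aligner and counting program are not given in the sources used here. Counts on the annotated strand were used. Totals of unmapped reads (10.1% in pup 2, 9.35% in pup 1), multi-mapped reads and reads outside genes (2.23% in pup 2, 2.41% in pup 1) stayed out of library sizes. Of 1973 identifiers, 1894 matched GENCODE M21, and the other 79 held 0 counts. Sequences came from RefSeq on GRCm38.p6.

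CPM, ratios and exact intervals were computed with scipy 1.17.1 and TMM library sizes with edgeR 4.0.16. Genes with at least 10 counts in each library were tested with a 2-sided exact binomial test, Benjamini-Hochberg adjusted, at a threshold of 0.05. On Poisson counts simulated for this comparison (311 genes tested), it recovered 67.4% of 1.5-fold, 89.5% of 2-fold and 100% of 4-fold changes, and called 1.78% of unchanged genes. The simulation held no variation between animals or libraries, so these rates cover counting noise alone. In the pups themselves, 41.1% of 314 genes passed. No molecular identifiers were counted, so reads need not be independent molecules, and intervals and floors measure counting error alone.

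The rule for named genes takes the 6 members, the nearest gene to each of 5 tested members, and up to 3 genes of each list. Mir92-1, Mir29b-1, Mir142b, Mir219a-1, Mir219a-2, Mir143 and Mir215 lie outside it and were chosen after seeing their values. Mir142 also lies outside it and is named because it was not matched. The members and lists were chosen with earlier results of these data known. Alternatives were DESeq2 1.42.0 size factors, total-count and upper-quartile scaling, other count minimums, a fold threshold, strand-blind counts, other denominators, a pseudocount and each pup alone.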

Additional observations from a re-analysis of the deposited data

How the results depend on the processing

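No paired analysis was possible because the series has 1 group. Summed over the family, the level of 3273 CPM became 3163 with strand ignored, 1831 per 1000000 of all reads and 3904 without Mir143 in the denominator, by construction of the denominators, and lay between 3224 and 3322 with either pup left out. With TMM scaling, the 129 genes that differed between the pups became 10 at a fold of at least 1.5, and the 2 members became 1, Mir181b-2. Its log2 ratio was 0.61 there, but 0.57 with total-count scaling, which is under 1.5-fold. Of the 129, 51.9% were higher in pup 2, against 41.7% with total-count and 64.6% with upper-quartile scaling. The log2 ratio of Mir181b-2 stayed between 0.57 and 0.65 under the scalings and filters tried. With no count filter Mir181b-1 had a log2 ratio of 1.17 (exact binomial adjusted p = 0.181). Over the pups singly, log2 ratios ran from 6.60 to 7.83 for Mir181a-1 over Mir181b-1, from -3.91 to -3.04 for Mir181a-2 over Mir181b-2, from 0.90 to 1.05 for Mir181c over Mir181d, from 4.81 to 5.02 for Mir181a-1 over Mir181a-2 and from -6.06 to -5.49 for Mir181b-1 over Mir181b-2. None of these 5 ratios changed direction with a pseudocount of 0.5; ignoring strand could not change them, since no member had opposite-strand reads. The longest shared run was 23 nucleotides for the miR-181a copies and 24 for the miR-181b copies within mature arms, as arms are shorter than hairpins. The difference between the pups has no value with a pup left out. At 9 counts in pup 1, depth limits Mir181b-1 most.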
